A study of Arabidopsis thaliana with 27 samples.

Results

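The genes described here encode the zeta-type phospholipases D of Arabidopsis thaliana, PLDzeta1 (AT3G16785) and PLDzeta2 (AT3G05630), and the non-specific phospholipases C, NPC1 (AT1G07230), NPC2 (AT2G26870), NPC3 (AT3G03520), NPC4 (AT3G03530), NPC5 (AT3G03540) and NPC6 (AT3G48610). They were taken by these AGI codes from the study's list of glycerolipid genes. The rule itself used no signal values, but the genes were chosen with earlier results of these data known. The 8 genes were measured by 7 of the 22746 probe sets of the table, in which 15252 genes could be named. NPC4 and NPC5 share a single probe set, so their transcripts cannot be told apart, and each of the other 6 genes has one of its own. In the RefSeq annotation of the TAIR10.1 assembly NPC1 lies on chromosome 1, NPC2 on chromosome 2 and the other 6 genes on chromosome 3, where NPC3, NPC4 and NPC5 follow each other with 0 annotated genes between them.

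Phospholipase D cuts the head group from a membrane phospholipid and leaves phosphatidic acid, a signalling lipid and an intermediate of glycerolipid synthesis. The zeta enzymes carry PX and PH domains like the phospholipases D of animals, whereas the other plant isoforms carry a C2 domain. Non-specific phospholipase C cuts on the other side of the phosphate, releases the phosphorylated head group and leaves diacylglycerol, and it is not restricted to phosphoinositides. Phosphatidate phosphatases turn phosphatidic acid into diacylglycerol, so both enzyme families feed the pool from which galactolipids, sulfolipids and triacylglycerol are made. In phosphate-starved plants PLDzeta2, NPC4 and NPC5 are known for their part in turning phospholipids into diacylglycerol while galactolipids replace them.

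All plants were wild-type Col-0 grown on agar plates, and no mutant or transgene was used. Heat08hr plants (18 days old, 3 arrays) were harvested 8 h and Heat24hr plants (19 days old, 3 arrays) 24 h after a shift to 38 °C, and Recovery08hr plants (19 days old, 3 arrays) and Recovery24hr plants (20 days old, 3 arrays) 8 h and 24 h after the heated plants were returned to 22 °C. Control08hr (6 arrays, 3 each from plants of 18 and 19 days) and Control24hr (9 arrays, 3 each from plants of 18, 19 and 20 days) stayed at 22 °C. The 08hr groups were harvested at 11 h and the 24hr groups at 3 h after the onset of light, so the length of a treatment and the clock time cannot be told apart. The labels name the tissue as leaf and the methods as aerial parts, and how many plants an array stands for is not given in the sources used here. The labels call the arrays of a group biological replicates.

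The values are MAS5 signals on a linear scale, one per probe set and array, and a probe set is called dim in a group where its mean signal is under 100. The trimmed mean of an array was 494.5 to 496.8, whereas the median signal was 128.1 to 133.6 on the Heat08hr arrays, 119.8 to 130.6 on the Heat24hr arrays and 160.1 to 175.9 on all others. The median log2 difference from controls over all probe sets was therefore -0.13 at Heat08hr and -0.22 at Heat24hr as deposited, and 0.25 and 0.19 after each array was centred on its median. With that centring the calls over all probe sets changed from 4432 higher and 6612 lower to 6901 higher and 4427 lower at Heat08hr, and from 5540 higher and 7597 lower to 7693 higher and 5466 lower at Heat24hr. The scale of the arrays thus sets much of the balance of directions under heat, and results that turn on it are given with both values. The third Recovery08hr array stood apart, with an SD of log2 differences of 0.623 and 0.716 from the other 2 of its group, against at most 0.577 between any other replicates. HSFA2, a heat shock factor, had mean signals of 1182 at Heat08hr and 4930 at Heat24hr against 19.5 at Control08hr and 14.8 at Control24hr. Of 7 leaf markers 3 could be named, and the photosynthesis genes RCA, LHCB4.1 and SBPASE had signals of at least 1619 on every array. All 3 fell at Heat24hr, Recovery08hr and Recovery24hr as deposited, where 33.4%, 26.2% and 18.4% of all probe sets were lower. After median centring 2 of them fell at Heat24hr, beside 5466 of all 22746 probe sets. After quantile normalization 2 of them fell at each recovery time, beside 5673 probe sets at Recovery08hr and 4146 at Recovery24hr. SBPASE fell by 3.75 on the log2 scale at Heat24hr. The root gene EXPA7 (1 of 5 named) stayed at or below 76.9 and the seed gene OLEO1 (1 of 3 named) at or below 67.05, neither was called in the 4 comparisons with controls, and of 4 flower markers and 1 phloem marker 0 could be named. FMA, a gene of the guard cell lineage (1 of 2 named), had log2 differences from controls of -0.86 at Heat08hr, 0.44 at Heat24hr, 0.20 at Recovery08hr and -0.53 at Recovery24hr, of which that at Recovery08hr was not called, nor that at Heat08hr after either other scaling. The part of these shifts in the results that follow was not tested, and fewer cells of a type and less RNA per cell cannot be told apart in whole shoots.

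PLDzeta1, NPC1 and NPC6 had mean signals of at least 100 in all 6 groups. NPC2 and NPC3 were dim in 1 group, Recovery08hr, and PLDzeta2 was dim in 5 groups, with Recovery08hr as its only group above the limit. The shared probe set of NPC4 and NPC5 was dim in all 6 groups and averaged 22.3 over the 27 arrays. A filter on the mean over the 27 arrays, set at the same limit, kept 5 of the 7 probe sets and dropped PLDzeta2 and NPC4/NPC5. Levels are compared within a probe set only, since brightness also depends on the probes.

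**Figure D1:**
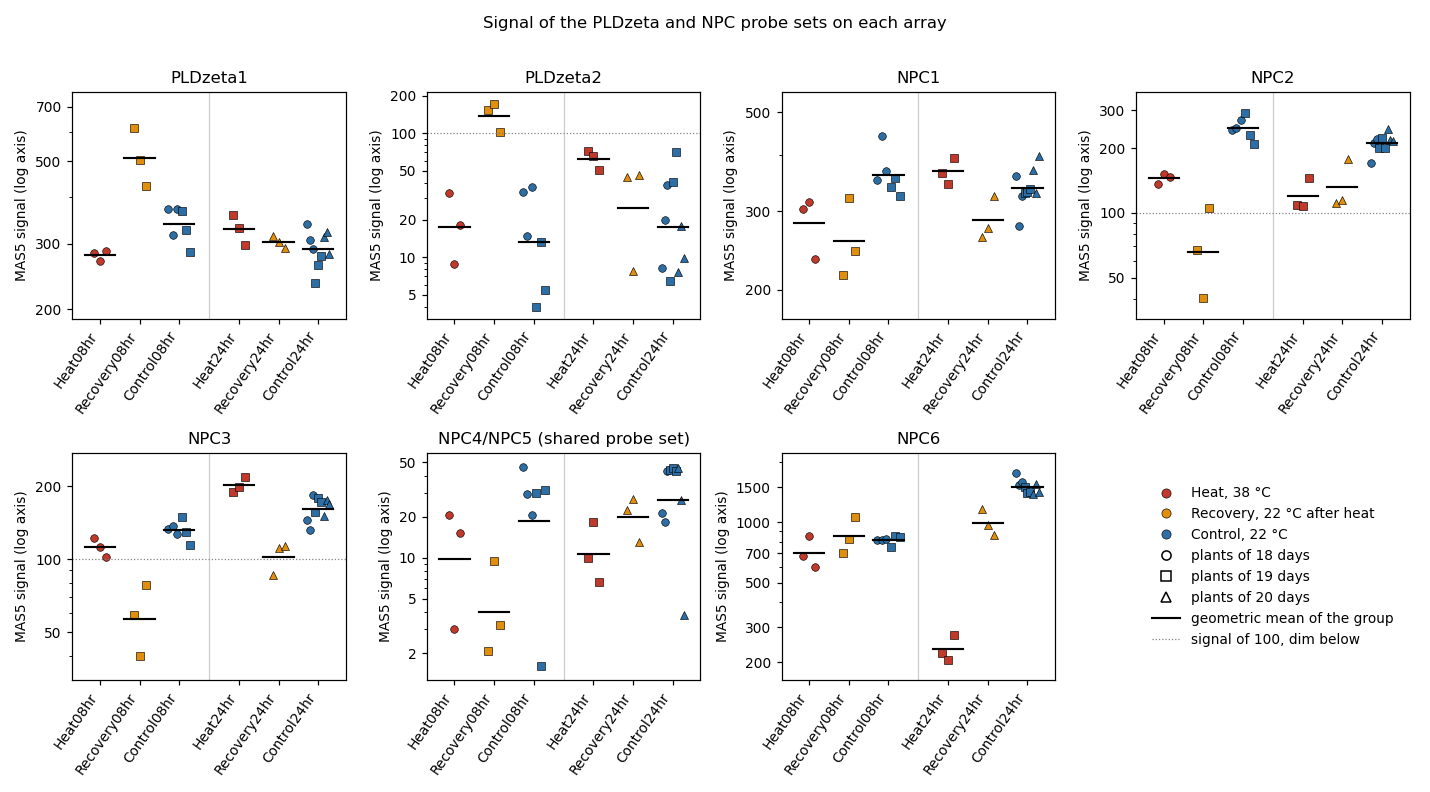
MAS5 signal (log axis, a scale of its own in each panel) of the 7 probe sets on each of the 27 arrays, by group, with the 08hr groups left and the 24hr groups right of the grey line. Symbols give plant age, black bars the geometric mean and the dotted line a signal of 100. The 3 Recovery08hr arrays of PLDzeta1 and PLDzeta2 lie above all others of those probe sets, and the 3 Heat24hr arrays of NPC6, at 204.9 to 274.8, lie below all others of NPC6.

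A probe set was called where limma's adjusted p was under 0.05. At Recovery08hr 5 of the 7 probe sets were called, 2 higher and 3 lower than Control08hr, where 52.5% of all probe sets were called (26.2% higher and 26.2% lower). At Heat24hr 4 were called, 2 higher and 2 lower than Control24hr, against 57.8% of all probe sets (24.4% higher and 33.4% lower). At Heat08hr 1 was called and it was lower than Control08hr, against 48.6% of all probe sets (19.5% higher and 29.1% lower). At Recovery24hr 3 were called and all 3 were lower than Control24hr, against 36.5% of all probe sets (18.1% higher and 18.4% lower). These were 14.3% of the 7 probe sets at Heat08hr, 57.1% at Heat24hr, 71.4% at Recovery08hr and 42.9% at Recovery24hr, and with so few of them nothing particular to the phospholipases is read from the counts. After quantile normalization or median centring 4 were higher and 2 lower at Heat24hr. Of all 22746 probe sets 6657 were higher and 6306 lower there after the first, and 7693 and 5466 after the second. At the study's limits (above 1.5-fold or below 0.5-fold, with the same adjusted p) 0 were called at Heat08hr beside 30.9% of all probe sets, 2 at Heat24hr beside 42.3%, 4 at Recovery08hr beside 38.9% and 0 at Recovery24hr beside 19.1%. Only the fold limits are the study's, since it adjusted p among its selected glycerolipid genes and the adjustment here ran over all probe sets. The treated and control arrays of a comparison did not overlap for 2 probe sets at Heat08hr, 3 at Heat24hr, 5 at Recovery08hr and 2 at Recovery24hr, beside 46.4%, 49.6%, 48.6% and 27.9% of all probe sets. The heat and recovery comparisons of one clock time share their control arrays.

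**Figure D2:**
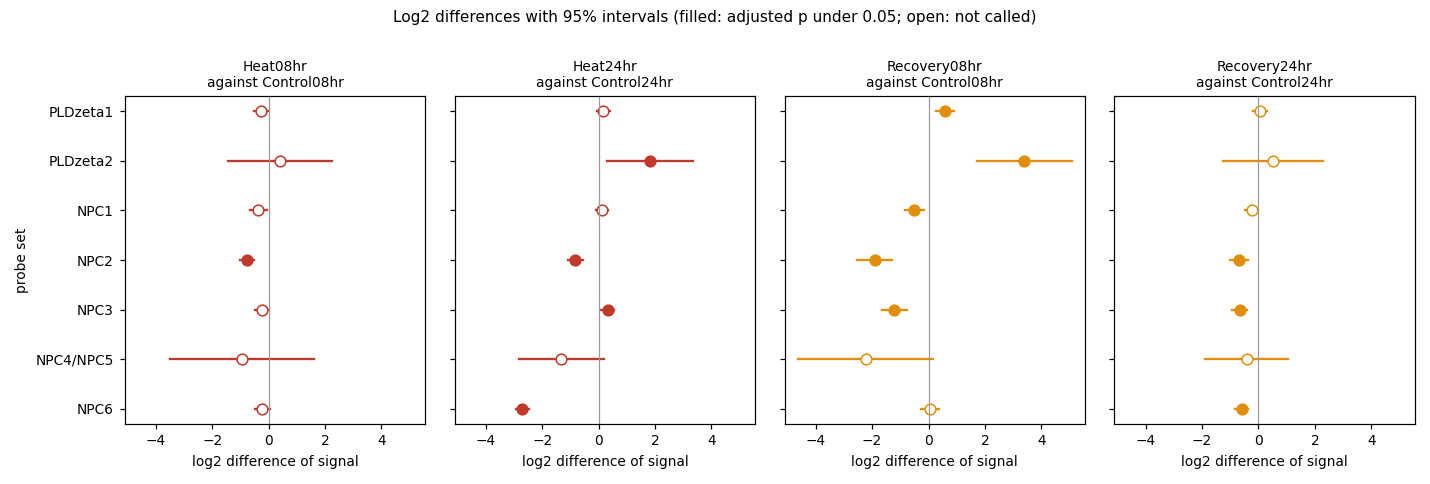
Log2 difference of signal (x axis) of each probe set (y axis) from the controls of the same clock time, with lines for the 95% interval and filled points for an adjusted p under 0.05. PLDzeta2 at Recovery08hr (3.39) and NPC6 at Heat24hr (-2.70) are the largest called differences, and the intervals of the dim probe sets PLDzeta2 and NPC4/NPC5 are the widest.

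PLDzeta1, which is known from root hair patterning as a gene repressed by the transcription factor GLABRA2, rose at Recovery08hr. Its signals there were 611.8, 503.4 and 429.4, against a lowest of 285.2, a median of 347.3 and a highest of 372.2 on the Control08hr arrays. Every Recovery08hr array was thus above every control array, and the mean signals were 514.8 ± 91.7 and 340.1 ± 36.3 (SD, n = 3 and 6). The log2 difference was 0.59 (standard error 0.144, adjusted p = 0.0079), a 1.505-fold increase that lies just above the study's 1.5-fold limit.

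Under heat PLDzeta1 was not called. The Heat08hr arrays had 282.9, 269.2 and 286.2, at the low end of Control08hr, with a log2 difference of -0.28 (95% interval -0.52 to -0.03, adjusted p = 0.0621). It was called without the third control of 19 days (-0.33, adjusted p = 0.0226) and among bright probe sets alone (adjusted p = 0.0278), and was 0.10 after median centring, so its sign depends on the scale of the arrays. At Heat24hr the signals were 359.1, 329.7 and 298.5 against 236.0 to 339.3 (median 291.2) at Control24hr, with a log2 difference of 0.17 (-0.07 to 0.42, adjusted p = 0.211), and here quantile normalization (0.36, adjusted p = 0.0127) and median centring (0.59, adjusted p = 0.000644) each gave a call. By Recovery24hr the signals of 315.3, 302.6 and 291.7 lay inside the control range, with a log2 difference of 0.06 (-0.18 to 0.30, adjusted p = 0.709).

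PLDzeta2, an enzyme of the vacuolar membrane with roles in auxin transport and in root responses to low phosphate, rose at Recovery08hr against dim controls. It had 153.1, 171.0 and 101.4 at Recovery08hr, against a lowest of 3.996, a median of 14.1 and a highest of 37.1 at Control08hr. No Recovery08hr array came near the controls, and the mean was 141.8 ± 36.1 against 18.1 ± 14.1 (SD, n = 3 and 6). The log2 difference was 3.39 (standard error 0.735, adjusted p = 0.00434) and its 95% interval was 1.71 to 5.07. With 16 added to every signal before the logarithm it was 2.29, and with controls of the same age 4.39, still called in both cases.

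At Heat24hr PLDzeta2 had 71.9, 65.0 and 50.8, against 6.43 to 70.1 (median 17.9) at Control24hr, and all 3 heated arrays stayed dim. The log2 difference was 1.83 (standard error 0.698, adjusted p = 0.0414), and the arrays overlapped because of a single control array of 19 days at 70.1. This call was lost with control arrays of 19 days alone (1.23, adjusted p = 0.32). It was also lost when any of 9 single arrays was left out, namely each Heat24hr array (1.72, 1.79 and 1.97, adjusted p = 0.119, 0.105 and 0.0751), the 3 controls of 20 days (1.68, 1.83 and 1.72, adjusted p = 0.06, 0.0563 and 0.0626), replicates 1 and 2 of 18 days (1.69 and 1.85, adjusted p = 0.0612 and 0.0537) and replicate 1 of 19 days (1.65, adjusted p = 0.0567). At Heat08hr the signals of 33.2, 8.82 and 18.1 lay within the control range (log2 difference 0.40, 95% interval -1.44 to 2.23). At Recovery24hr the signals were 44.2, 7.70 and 46.4 (0.52, -1.24 to 2.29). At these dim signals the intervals run from 0.369-fold to 4.70-fold at Heat08hr and from 0.422-fold to 4.90-fold at Recovery24hr. Changes within those ranges could be missed.

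NPC1, the isoform that has been linked to heat tolerance in Arabidopsis, was called in 1 of the 4 comparisons with controls. At Recovery08hr it had 215.4, 320.5 and 244.6, against a lowest of 324.1, a median of 353.6 and a highest of 443.0 at Control08hr. It fell by 0.50 on the log2 scale (standard error 0.151, adjusted p = 0.0225), with no overlap of arrays but a narrow gap. The call was lost without the first Recovery08hr array (-0.37, adjusted p = 0.1), without the third, the array that stood apart (-0.46, adjusted p = 0.0613), and with controls of 19 days alone (-0.40, adjusted p = 0.143). At Heat08hr the signals of 303.4, 315.1 and 234.0 also lay below all Control08hr arrays, but the log2 difference of -0.36 (95% interval -0.67 to -0.06) missed the threshold (adjusted p = 0.0513). Among the fits that called it were those without the second Heat08hr array (-0.44, adjusted p = 0.0479), with 16 added, with all arrays in 1 fit and among bright probe sets alone, and it was 0.01 after median centring. Heat24hr gave 366.0, 345.9 and 394.4 and Recovery24hr 262.7, 275.4 and 325.1, against 278.0 to 398.2 (median 331.8) at Control24hr. Those log2 differences were 0.12 (-0.10 to 0.35) and -0.24 (-0.48 to 0.00), neither of them called. After median centring both were called (0.54, adjusted p = 0.000414, and -0.30, adjusted p = 0.0498), as they were after quantile normalization (0.28, adjusted p = 0.0371, and -0.34, adjusted p = 0.0408).

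NPC2, which shares roles with NPC6 in the development of pollen and ovules, fell in all 4 comparisons with controls, the only one of the 7 probe sets to be called in each. Its signals were 136.9, 151.9 and 147.1 at Heat08hr, against 209.6 to 290.5 (median 245.3) at Control08hr, and the log2 difference was -0.77 (standard error 0.113, adjusted p = 0.000502). At Heat24hr it had 108.9, 107.2 and 145.4, against 171.2 to 246.5 (median 216.4) at Control24hr, and the log2 difference was -0.82 (standard error 0.119, adjusted p = 6.95e-05). Heated and control arrays did not overlap at either time. After median centring the 2 differences were -0.40 and -0.41, still called.

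The lowest signals of NPC2 came at Recovery08hr, with 66.98, 40.4 and 105.7, the third again being the array that stood apart. The mean of 71.0 ± 32.8 (SD, n = 3) was 3.75-fold below the Control08hr mean on the log2 scale (log2 difference -1.91, standard error 0.267, adjusted p = 0.000365), and without the third array the difference was -2.25. At Recovery24hr the signals were 110.8, 114.4 and 178.4. Only the third of these reached the control range, and the log2 difference was -0.68 (standard error 0.146, adjusted p = 0.00322). With the 3 control arrays of 20 days alone it was -0.79 and no longer called (adjusted p = 0.069).

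NPC3, for which a lysophosphatidate phosphatase activity and a role in the brassinosteroid response of roots have been described, went in opposite directions at the end of the heat and in recovery. It had 189.9, 198.6 and 218.3 at Heat24hr, against 132.0 to 184.6 (median 169.2) at Control24hr, so that all heated arrays lay just above the controls. The increase of 0.32 on the log2 scale (standard error 0.108, adjusted p = 0.024) was lost with control arrays of 19 days alone (0.26, adjusted p = 0.148), with all arrays in 1 fit (adjusted p = 0.0581), without the second Heat24hr array (0.33, adjusted p = 0.0553) and without the third (0.26, adjusted p = 0.106). It was larger on the other scales of the arrays, at 0.65 after quantile normalization (adjusted p = 0.000402) and 0.74 after median centring (adjusted p = 0.000109). At Recovery08hr NPC3 had 58.9, 40.0 and 78.4, against 114.9 to 149.6 (median 131.6) at Control08hr, and fell by 1.21 on the log2 scale (standard error 0.196, adjusted p = 0.000862). At Recovery24hr it had 86.2, 110.9 and 113.0, all below the Control24hr arrays, and fell by 0.66 (standard error 0.122, adjusted p = 0.00138). At Heat08hr the signals of 122.9, 112.4 and 102.0 overlapped those of Control08hr (-0.23, 95% interval -0.47 to 0.00, adjusted p = 0.0987). It was called among bright probe sets alone (adjusted p = 0.0496), and the sign turned after quantile normalization (0.17) and median centring (0.14).

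NPC4, a plasma membrane enzyme that is induced by phosphate starvation, and its neighbour NPC5 could be read only together and only near the low end of the array. Their probe set had 20.6, 2.99 and 15.2 at Heat08hr, 9.94, 18.1 and 6.66 at Heat24hr, 2.08, 9.48 and 3.23 at Recovery08hr and 22.5, 26.7 and 12.99 at Recovery24hr. The controls ran from 1.60 to 46.6 (median 29.7) at Control08hr and from 3.82 to 45.7 (median 43.2) at Control24hr. Each treated group thus overlapped its controls, and the log2 differences of -0.93, -1.32, -2.22 and -0.42 in the same order of groups had adjusted p of 0.541, 0.125, 0.109 and 0.667. With standard errors of 0.674 to 1.11, changes of several fold could be missed at this signal. A lower signal was called at Heat24hr with control arrays of 19 days alone (-2.05, adjusted p = 0.00737) and without the third control of 20 days (-1.67, adjusted p = 0.0029). At Recovery08hr one was called without the second control of 19 days (-2.93, adjusted p = 0.00173), with all arrays in 1 fit (-2.22, adjusted p = 0.0385) and with 16 added to every signal (-0.94, adjusted p = 0.0405).

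NPC6, an isoform linked to triacylglycerol synthesis in seeds, was the probe set with the largest decrease under heat. At Heat24hr it had 221.4, 204.9 and 274.8, against a lowest of 1378, a median of 1504 and a highest of 1768 at Control24hr. The mean was 233.7 ± 36.5 against 1506 ± 123 (SD, n = 3 and 9), a 6.48-fold decrease (log2 difference -2.70, standard error 0.104, adjusted p = 7.23e-10). The value was -2.48 after quantile normalization, -2.28 after median centring and -2.61 to -2.82 with each array left out in turn. After the shorter heat no decrease of that size was present, since the Heat08hr signals of 676.1, 853.6 and 599.2 reached the Control08hr range of 752.2 to 854.4 (median 825.3). The log2 difference there was -0.22 (95% interval -0.49 to 0.04, adjusted p = 0.146), was called without the second Heat08hr array (-0.37, adjusted p = 0.0143), and was 0.15 after median centring.

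In recovery the signal of NPC6 was 699.8, 828.9 and 1066 at Recovery08hr, on both sides of the Control08hr range, with a log2 difference of 0.05 (-0.25 to 0.36, adjusted p = 0.761). Without the third array, which stood apart, it was -0.11. At Recovery24hr the signals were 1169, 973.3 and 865.8, all below the lowest Control24hr array, and NPC6 was lower by 0.59 on the log2 scale (standard error 0.106, adjusted p = 0.00101), or 1.51-fold. With the 3 controls of 20 days alone the difference was -0.54 and not called (adjusted p = 0.0743).

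Ordered by the mean of the log2 signals, NPC6 ran from Control24hr through Recovery24hr, Recovery08hr, Control08hr and Heat08hr down to Heat24hr. The first and the last of these steps had no overlap of arrays, and the groups between did not separate from their neighbours. For PLDzeta1 only the top step, from Recovery08hr to Control08hr, was free of overlap, and the 5 other groups ran into each other. For PLDzeta2 the top group Recovery08hr and the next, Heat24hr, each stood clear of the next group down, although one Control24hr array reached into Heat24hr. NPC2 ran from both control groups, which overlapped, over a gap to Heat08hr, Recovery24hr and Heat24hr, which also overlapped, and over a narrow gap to Recovery08hr. NPC3 ran from Heat24hr to Recovery08hr, and of its steps only the first and the last were free of overlap. For NPC1, from Heat24hr to Recovery08hr, and for NPC4/NPC5, from Control24hr to Recovery08hr, all neighbours overlapped.

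Harvest times were compared in the controls, of which only Control24hr held plants of 20 days. Of the 7 probe sets 1 was higher and 2 were lower at Control08hr than at Control24hr, beside 33.4% of all probe sets called (17.6% higher and 15.8% lower), and at the study's limits 0 beside 12.5%. In a fit of plants of 18 and 19 days alone all 7 kept their sign, and no call was gained or lost. NPC6 had 752.2 to 854.4 at Control08hr against 1378 to 1768 at Control24hr with no overlap, the only such probe set of the 7 beside 18.5% of all probe sets, and its log2 difference was -0.87 (standard error 0.0605, adjusted p = 2.05e-08). Within Control24hr it had means of 1630 ± 123, 1441 ± 54.3 and 1447 ± 90.6 at 18, 19 and 20 days (SD, n = 3 each), and within Control08hr 823.0 ± 6.26 and 818.7 ± 57.7 at 18 and 19 days, so the gap between the clock times was there at both shared ages. NPC3 was lower at Control08hr (-0.30, standard error 0.0818, adjusted p = 0.0103), with overlapping arrays. NPC2 was higher by 0.23 (standard error 0.0841) with an adjusted p that rounds to the threshold of 0.05. That call was lost under both other scales of the arrays (0.21, adjusted p = 0.112, and 0.18, adjusted p = 0.141), with 16 added, with all arrays in 1 fit and when any of 13 of the 15 arrays was left out (0.18 to 0.25, adjusted p up to 0.125), the exceptions being the first control of 20 days and the third Control08hr array of 19 days. PLDzeta1 had 0.22 (adjusted p = 0.0704) and was called among bright probe sets alone (adjusted p = 0.036), without the first control of 18 days of Control24hr (0.25, adjusted p = 0.0407) and without the third of 19 days of Control08hr (0.27, adjusted p = 0.0298).

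Recovery08hr was set against Heat08hr and Recovery24hr against Heat24hr to see which transcripts differed between heated plants and plants after heat at one clock time. These pairs also differ in plant age by a day. At Recovery08hr 2 probe sets were higher and 1 was lower than at Heat08hr, beside 39.3% of all probe sets called (22.5% higher and 16.8% lower), and 4 did not overlap, beside 53.9% of all. At the study's limits 2 were called beside 33.9%, and after either other scaling 1 was higher and 2 were lower. Of all probe sets 4165 were higher and 4386 lower after quantile normalization, and 3432 and 5688 after median centring. PLDzeta2 was higher by 2.99 (standard error 0.523, adjusted p = 0.00814) and PLDzeta1 by 0.87 (standard error 0.18, adjusted p = 0.0144), whereas NPC3 was lower by 0.98 (standard error 0.279, adjusted p = 0.0396). The fits that lost the PLDzeta1 call included those after quantile normalization (0.55, adjusted p = 0.0654), after median centring (0.52, adjusted p = 0.0866), and without the first (0.88, adjusted p = 0.0505) or second (0.84, adjusted p = 0.0531) Heat08hr array. When single arrays were left out, the NPC3 call was lost without any one of the 6 except the third Recovery08hr array, with values of -0.72 to -1.05 in those 5 fits (adjusted p = 0.0682 to 0.115). NPC2 was also without overlap, with a log2 difference of -1.14 (adjusted p = 0.0562). It was called after both other scalings (-1.35 and -1.49), with 16 added, among bright probe sets alone, with all arrays in 1 fit and without the third Recovery08hr array (-1.48, adjusted p = 0.014).

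At Recovery24hr NPC6 was higher than at Heat24hr by 2.1 on the log2 scale (standard error 0.194, adjusted p = 0.00107), a 4.29-fold difference, and NPC3 was lower by 0.98 (standard error 0.169, adjusted p = 0.00698). These 2 calls stood beside 42.4% of all probe sets (24.4% higher and 17.9% lower), and 4 probe sets did not overlap, beside 55.5% of all. At the study's limits 1 was called beside 35.0%. NPC1 had a log2 difference of -0.36 (adjusted p = 0.112) that was called after quantile normalization (-0.62, adjusted p = 0.0228) and median centring (-0.84, adjusted p = 0.00712) and with all arrays in 1 fit (adjusted p = 0.0464). PLDzeta1 was called after median centring alone (-0.59, adjusted p = 0.0275). PLDzeta2 had a log2 difference of -1.30 (95% interval -3.17 to 0.56, adjusted p = 0.22).

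Whether the change from control differed between the clock times was tested as a difference of 2 differences. For heat 4 probe sets were called, beside 35.9% of all probe sets (17.5% higher and 18.4% lower at 24hr), and at the study's limits 1 beside 25.0%. NPC6 changed more to the lower side at 24hr than at 8hr by 2.47 on the log2 scale (standard error 0.149, adjusted p = 1.32e-10). NPC3, NPC1 and PLDzeta1 went the other way, by 0.55 (standard error 0.146, adjusted p = 0.00537), 0.49 (standard error 0.159, adjusted p = 0.0217) and 0.45 (standard error 0.151, adjusted p = 0.025). The NPC1 difference was not called without the third Heat08hr array (0.35, adjusted p = 0.097) or the third Heat24hr array (0.44, adjusted p = 0.0613). The PLDzeta1 difference was not called without the first Heat24hr array (0.39, adjusted p = 0.0835) or the second Heat08hr array (0.42, adjusted p = 0.0606). NPC2, which fell at both times, had a difference of -0.05 (95% interval -0.39 to 0.28, adjusted p = 0.838).

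For recovery 3 probe sets were called, beside 39.1% of all probe sets (19.7% higher and 19.4% lower at 24hr), and at the study's limits 1 beside 27.8%. NPC2 had a difference of 1.22 (24hr less 8hr, standard error 0.292, adjusted p = 0.00222), PLDzeta1 one of -0.53 (standard error 0.17, adjusted p = 0.0178) and NPC6 one of -0.65 (standard error 0.161, adjusted p = 0.00305). NPC2 (-1.91 at 8hr and -0.68 at 24hr) and PLDzeta1 (0.59 and 0.06) thus lay closer to their controls at 24hr, whereas NPC6 (0.05 and -0.59) lay further from them. PLDzeta2 had the largest value, -2.86 (standard error 1.15), but was not called (adjusted p = 0.0558), and was called with 16 added to every signal (-1.98, adjusted p = 0.00975), with all arrays in 1 fit (adjusted p = 0.0386) and with controls of the same age (-3.20, adjusted p = 0.0413). It was also called without any one of 7 arrays, namely replicates 1 and 3 of 18 days of Control08hr, replicate 1 of each age of Control24hr, and replicates 1 and 3 of Recovery24hr (-3.00 to -3.31, adjusted p = 0.0352 to 0.0483). With controls of the same age the differences of NPC2 (1.09, adjusted p = 0.115), NPC6 (-0.60, adjusted p = 0.106) and PLDzeta1 (-0.66, adjusted p = 0.0521) were not called. The PLDzeta1 difference was also lost without the first Recovery08hr array (-0.40, adjusted p = 0.0831). NPC3 had 0.55 (adjusted p = 0.0554) and was called among bright probe sets alone, with all arrays in 1 fit, and without the third Recovery08hr array (0.78, adjusted p = 0.00341), the first Recovery24hr array (0.68, adjusted p = 0.0273) or the third Control08hr array of 19 days (0.59, adjusted p = 0.0471). NPC4/NPC5 had 1.80 (adjusted p = 0.285) and was called without the second Control08hr array of 19 days (2.51, adjusted p = 0.0371).

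Genes of the neighbouring steps were taken from lists of known family members, of which only those with a named probe set are counted. Of 11 phosphatidate phosphatases, the enzymes that take up the product of phospholipase D, 8 could be named. At Heat24hr 3 rose and 3 fell (median log2 difference 0.39, beside -0.22 over all probe sets), where 24.4% of all probe sets were higher and 33.4% lower, and at Recovery08hr 3 rose and 1 fell (-0.21 beside -0.09), where 26.2% were higher and 26.2% lower. At Heat08hr 2 rose and 2 fell (-0.35 beside -0.13), where 19.5% of all probe sets were higher and 29.1% lower, and at Recovery24hr 1 rose and 1 fell (0.06 beside -0.07), where 18.1% were higher and 18.4% lower. The gene that fell at Recovery24hr, and 1 of the 3 that fell at Heat24hr, was LPP4. Its signals of 1.051 to 11.94 over the arrays lie near the lowest value of 1. With so few genes in a list nothing particular to it is read from these counts or those of the lists that follow. After quantile normalization 3 rose and 1 fell at Heat24hr, 3 rose and 2 fell at Heat08hr, and 0 rose and 0 fell at Recovery24hr, and after median centring 4 rose and 1 fell at Heat24hr, 3 rose and 2 fell at Heat08hr, and 0 rose and 2 fell at Recovery24hr. PAH1, a soluble enzyme of the endoplasmic reticulum known for membrane remodelling at low phosphate, had mean signals of 929.1 ± 106 at Heat24hr against 365.8 ± 65.2 at Control24hr, and rose by 1.36 on the log2 scale (standard error 0.176, adjusted p = 2.76e-05). At Recovery08hr it rose by 1.23 (standard error 0.147, adjusted p = 0.000145), with 585.7 ± 85.5 against 249.7 ± 33.0 at Control08hr. LPP3 fell by 2.17 at Heat24hr (128.1 ± 23.6 against 570.9 ± 40.1, standard error 0.112, adjusted p = 7.93e-09) and fell by 0.40 at Recovery08hr (standard error 0.0982, adjusted p = 0.00809).

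All 7 genes of galactolipid and sulfolipid synthesis on the list could be named, and the shares of all probe sets called are those just given. At Recovery08hr 1 rose and 5 fell (median -0.76 beside -0.09 over all probe sets), at Heat24hr 3 rose and 1 fell (-0.08 beside -0.22), at Heat08hr 2 rose and 3 fell (-0.10 beside -0.13) and at Recovery24hr 0 rose and 3 fell (-0.27 beside -0.07). At Heat08hr 2 rose and 2 fell after quantile normalization, and 3 rose and 1 fell after median centring, while the counts of the other comparisons stood. Among the genes that fell as deposited at Recovery08hr and at Heat08hr was MGD3 (-0.76 and -0.61). It was dim in every group, with mean signals of 29.72 to 70.31. SQD1, which makes the sulfolipid head group donor, rose by 1.45 at Heat24hr (standard error 0.192, adjusted p = 3.29e-05). DGD1, the main digalactosyldiacylglycerol synthase of leaves, fell by 0.96 at Heat24hr (standard error 0.0983, adjusted p = 3.37e-06) and rose by 0.77 at Recovery08hr (standard error 0.126, adjusted p = 0.000914). DGD1 also rose by 1.41 at Heat08hr (adjusted p = 8.73e-06) and fell by 0.69 at Recovery24hr (adjusted p = 0.000282). It thus rose in both 08hr groups and fell in both 24hr groups, which differ in treatment length and clock time together. Its control means were 539.9 at Control08hr and 1878 at Control24hr, and the cause of these directions was not tested. MGD2, a monogalactosyldiacylglycerol synthase of the outer envelope that is induced at low phosphate, had 60.0 ± 14.8 at Recovery08hr against 121.9 ± 31.4 at Control08hr and fell by 1.01 (standard error 0.241, adjusted p = 0.00696). MGD2 also fell by 1.18 at Heat08hr (adjusted p = 0.00153) and by 0.83 at Recovery24hr (adjusted p = 0.0106). It was not called at Heat24hr (-0.24, adjusted p = 0.397).

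**Figure D3:**
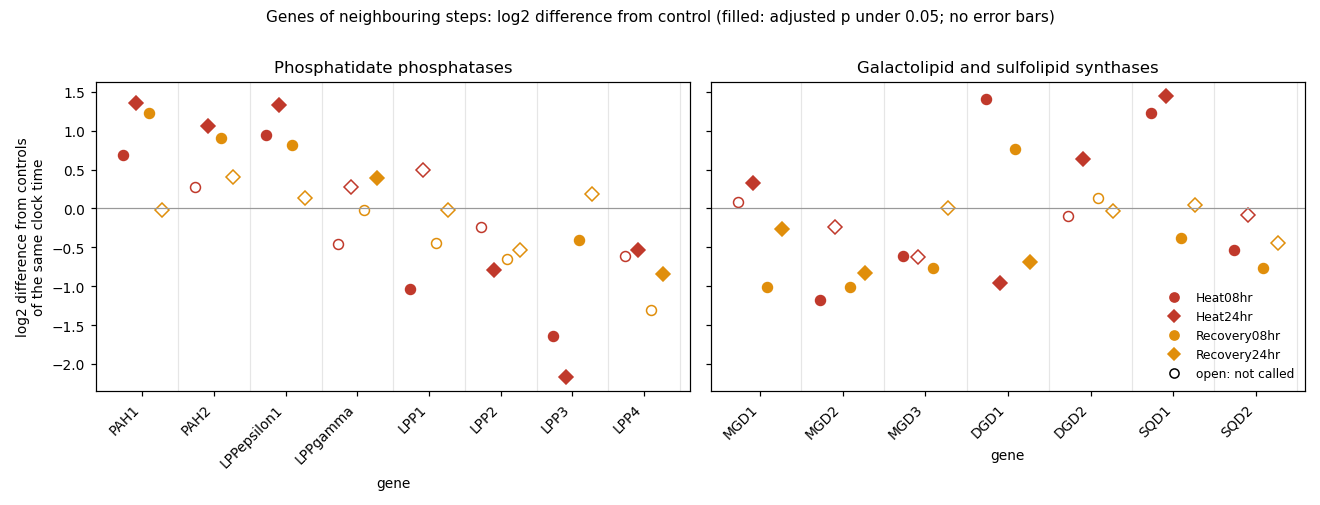
Log2 difference from the controls of the same clock time (y axis) for the 8 named phosphatidate phosphatases and the 7 genes of galactolipid and sulfolipid synthesis (x axis), with filled symbols for an adjusted p under 0.05 and no error bars. PAH1 (0.69, 1.36 and 1.23) and LPPepsilon1 (0.95, 1.33 and 0.81) were called higher at Heat08hr, Heat24hr and Recovery08hr, and LPP3 (-1.64, -2.17 and -0.40) was called lower there. LPP4 stayed at or below a signal of 11.94 on every array.

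Of 13 genes of the phosphate starvation response 4 could be named, and PLDzeta2, NPC4 and NPC5 share that response as background. At Heat24hr 1 rose and 0 fell (median log2 difference 0.81, beside -0.22 over all probe sets, of which 24.4% were higher), and the riser was the phosphate transporter PHT1;4, dim in both groups (89.3 against 24.1, log2 difference 2.32, adjusted p = 0.0218). Its probe set is of the _s_at type, like that shared by NPC4 and NPC5, and may also match other transcripts. It ranged from 2.448 to 119.3 over the arrays and had -1.78 at Heat08hr, which was not called (adjusted p = 0.0648). At Recovery08hr 1 rose and 0 fell (median 0.60, beside -0.09 over all probe sets, of which 26.2% were higher). This was RNS1, a secreted ribonuclease that also responds to wounding and senescence, with 1147 ± 53.1 against 32.8 ± 19.6 (log2 difference 5.74, standard error 1.1, adjusted p = 0.00226). RNS1 was called at Recovery24hr too (7.44), and at Heat24hr after quantile normalization (2.15, adjusted p = 0.0448) but not as deposited (1.65, adjusted p = 0.112). As deposited 0 genes of the list were called at Heat08hr. SPX2, a phosphate sensor, had a log2 difference of 0.26 there (adjusted p = 0.0587) and was called after quantile normalization (0.31, adjusted p = 0.0338) and median centring (0.64, adjusted p = 0.00115). It was called at Heat24hr after median centring alone (0.37, adjusted p = 0.00935, against -0.05 as deposited). SPX3, also a phosphate sensor, was not called in any of the 4 comparisons on any of the 3 scales. It was dim in every group (mean signals of 9.33 to 32.92), with log2 differences of -1.74 to 0.96 as deposited, so a change could be missed.

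From 3 further families 1 gene each could be named. PLDbeta1, of 10 phospholipases D other than zeta, rose by 0.50 at Heat24hr (407.1 ± 22.6 against 289.0 ± 38.8, adjusted p = 0.00451) and was not called in the other comparisons with controls. DGK3, of 7 diacylglycerol kinases, which turn diacylglycerol back into phosphatidic acid, had log2 differences of 0.49 at Heat24hr (adjusted p = 0.00344), 0.43 at Recovery08hr (adjusted p = 0.0241) and -0.48 at Heat08hr (adjusted p = 0.0192), of which the first was called on all 3 scales, the second was not called after quantile normalization (0.35, adjusted p = 0.0618) and the third after neither other scaling (-0.23 and -0.11). PLC7, of 9 phosphoinositide-specific phospholipases C, was not called as deposited, and its value of 1.99 at Heat24hr (adjusted p = 0.0604) was called after quantile normalization (2.47, adjusted p = 0.0421) and median centring (2.41, adjusted p = 0.027).

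Among 7910 probe sets of 1 named gene with a mean signal of at least 100, those most like each phospholipase over the 27 arrays were found by Pearson's r of log2 signals. The arrays of a group share their treatment and clock time, so r mainly reflects the 6 groups and is given as a description. For PLDzeta1 these were AT5G46620 (r = 0.902), WRKY33 (0.892), a transcription factor of defence responses, and AT3G05760 (0.889). WRKY33 had a mean signal of 1548 at Recovery08hr against 295.6 at Control08hr. For PLDzeta2 they were AT1G56350 (0.795), AT1G61690 (0.781) and AT2G41640 (0.761), and AT2G41640 had 302.9 at Recovery08hr against 54.3 at Control08hr. For NPC6 they were AT2G04039 (0.963), AT3G13040 (0.962) and AT1G66130 (0.959). AT2G04039 had 218.9 at Heat24hr against 4776 at Control24hr, and 959.0 at Heat08hr against 1648 at Control08hr.

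For NPC2 the closest were AT5G19170 (0.957), VPS2.2 (0.953), a component of membrane trafficking, and AT5G48460 (0.946), and for NPC3 they were GH9B7 (0.908), UBC22 (0.897) and AT5G50335 (0.865). VPS2.2 had 76.4 at Recovery08hr against 445.7 at Control08hr, and GH9B7, an endoglucanase gene, 667.0 against 1915. The values were lower for NPC1, with AT5G66420 (0.742), MSRB6 (0.724) and AT2G39420 (0.724), and for NPC4/NPC5, with AT3G23840 (0.652), AT1G01710 (0.635) and AT3G60245 (0.606). Among the 7 phospholipase probe sets themselves r was highest between NPC2 and NPC3 (0.68) and lowest between PLDzeta1 and NPC3 (-0.64). PLDzeta1 and PLDzeta2 had an r of 0.54, and NPC2 and NPC6, which share roles in reproduction, one of 0.36.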

How the data were processed

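RNA of Arabidopsis shoots was hybridised to 27 Affymetrix ATH1 arrays, 1 array per sample. The authors summarised the arrays by MAS5 in GeneSpring and deposited linear signal intensity values, with a lowest of 1. Their trimmed mean was nearly equal on all arrays, and how this came about is not given in the sources used here. The methods name a baseline to the median of all samples, which these values do not show. No detection calls were used.

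Probe sets were named from the study's glycerolipid list (228), the platform annotation (13384) and the part at hand of its whole-array list (769). A further 500 with several genes and 7865 were left unnamed, and all 22746 were tested.

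Two-sided tests on log2 signals were run by limma 3.58.1 (lmFit, eBayes; R 4.3.3). A fit held the arrays of the compared groups alone, and controls of a clock time were pooled over ages. The Benjamini-Hochberg adjustment ran over all probe sets. Tables and plots used Python 3.11.15, pandas 2.3.3, numpy 2.4.6 and matplotlib 3.10.9. The fit was tested on simulated data.

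The text names all phospholipase probe sets, of each list the largest rise and fall at Heat24hr and Recovery08hr past the test with a mean of at least 100 in the higher group, and the 3 probe sets most like each phospholipase. PHT1;4, LPPepsilon1, LPP4, MGD3, PLC7, SPX2 and SPX3 lie outside this rule and were named after their values were seen, as were the examples given for the probe sets most alike. The members and lists were chosen with earlier results of these data known. Alternatives were quantile normalization, median centring, 16 added to the signal, bright probe sets alone, the arrays of all groups fitted together, a replicate block, the study's fold limits, controls of the same age and leaving out each array. The number of arrays and their signal limit the precision. Lipid measurements were not analysed here.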

Additional observations from a re-analysis of the deposited data

Results flagged for a closer look

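Changes from control that differed between the clock times by the test of the difference itself (24hr less 8hr, log2 scale) were those of PLDzeta1 (0.45), NPC1 (0.49), NPC3 (0.55) and NPC6 (-2.47) under heat. In recovery they were those of PLDzeta1 (-0.53), NPC2 (1.22) and NPC6 (-0.65). The length of the treatment and the hour of harvest differ together in all 7.

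Of 14 control groups of a phospholipase probe set, 3 held 1 array whose gap to the next was large for the range of its group, where chance gives about 1 group in 20. For NPC4/NPC5 these were a Control08hr array of 19 days at 1.60 and a Control24hr array of 20 days at 3.82, and for NPC6 a Control08hr array of 19 days at 752.2, close to the next at 818.3 because the group is tight. The first 2 lie near the lowest value of the table, and the calls of NPC4/NPC5 change without them.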

How the results depend on the processing

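The number of called probe sets of the 7 moved by over 1.5 times under some settings. At the study's limits (above 1.5-fold or below 0.5-fold) it was 0 at Heat08hr (against 1), 2 at Heat24hr (against 4), 0 at Recovery24hr (3), 0 between the controls (3), 1 between Recovery24hr and Heat24hr (2), and 1 each for the difference between clock times under heat (4) and in recovery (3). At Heat08hr it was 2 with 16 added, 2 with all arrays in 1 fit and 4 among bright probe sets. Controls of the same age gave 1 at Recovery24hr and 1 for the recovery difference between clock times, all arrays in 1 fit gave 5 for that recovery difference, and median centring gave 4 between Recovery24hr and Heat24hr. When each array was left out in turn the counts were 1 to 3 at Heat08hr, 2 to 4 at Heat24hr, 4 to 6 at Recovery08hr, 3 throughout at Recovery24hr, 2 to 4 between the controls, 1 to 4 between Recovery08hr and Heat08hr, 2 throughout between Recovery24hr and Heat24hr, 3 to 4 for heat and 2 to 5 for recovery between clock times.

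Signs turned only for differences that were not called. After median centring the Heat08hr values were 0.10 for PLDzeta1, 0.01 for NPC1, 0.14 for NPC3 and 0.15 for NPC6, that of PLDzeta1 at Recovery24hr was -0.00, that of NPC6 between Recovery08hr and Heat08hr -0.07 and that of NPC2 between Recovery24hr and Heat24hr -0.34. After quantile normalization they were 0.17 for NPC3 at Heat08hr, -0.12 for NPC6 at Recovery08hr, -0.02 for PLDzeta1 at Recovery24hr, -0.33 for NPC2 between Recovery24hr and Heat24hr and 0.02 for NPC2 in heat between clock times. With controls of the same age they were -0.61 for PLDzeta2 at Heat08hr, -0.01 for PLDzeta1 and 0.26 for NPC4/NPC5 at Recovery24hr, and 0.00 for NPC2 in heat between clock times. With an array left out the ranges were -0.07 to 0.89 for PLDzeta2 at Heat08hr, -0.11 to 0.20 for NPC6 at Recovery08hr, -0.86 to 0.20 for NPC4/NPC5 between the controls, -0.08 to 0.28 for NPC2 between Recovery24hr and Heat24hr, and -0.20 to 0.02 for NPC2 and -1.25 to 0.32 for NPC4/NPC5 in heat between clock times. The cause was not tested in any of these.

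With the replicate number as a block, 2 probe sets were called at Heat08hr and 1 between Recovery08hr and Heat08hr, against 1 and 3 without the block. Calls were gained for NPC1 at Heat08hr (-0.36, adjusted p = 0.0429) and NPC4/NPC5 between Recovery24hr and Heat24hr (0.90, adjusted p = 0.0481), and lost for PLDzeta1 (adjusted p = 0.0526) and NPC3 (adjusted p = 0.0874) between Recovery08hr and Heat08hr and for NPC2 between the controls (adjusted p = 0.0701). The block changed no other call of the 7 probe sets. Deviations from the group means of arrays with the same number had a median r of 0.029 (-0.152 to 0.258, over 0.1 in 12 of 108 pairs). Pairs with different numbers had one of -0.012 (-0.334 to 0.264, over 0.1 in 8 of 216 pairs). The deviations of the 3 arrays of a group and age sum to 0, so these sets of r are not independent. Whether the numbers pair the arrays cannot be told from these values. The rises of PLDzeta1 and PLDzeta2 and the falls of NPC2 and NPC3 at Recovery08hr and the falls of NPC2 and NPC6 at Heat24hr kept their direction and an adjusted p under 0.05 in every fit run, although PLDzeta2 is not among the bright probe sets. With 3 treated arrays, standard errors over all comparisons of 0.0605 to 0.365 for the 5 bright probe sets and 0.462 to 1.29 for the 2 dim ones limit what could be seen.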
